A study of Homo sapiens with 12 samples.

Results

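The E2F and DP transcription factors switch on, and switch off, the genes that carry a cell from G1 into S phase. The group described here holds the 8 E2F genes, E2F1 to E2F8, and the 2 DP genes, TFDP1 and TFDP2, taken by gene symbol from the deposited count table of 59251 genes. All 10 passed edgeR's expression filter, which kept 13318 genes of the table. E2F1, E2F2 and E2F3 are activators of transcription, E2F4 and E2F5 act mainly as repressors together with the pocket proteins, and E2F6 represses through Polycomb complexes. These factors bind DNA as dimers with a DP protein. E2F7 and E2F8 are atypical E2Fs that bind DNA without a DP partner and repress E2F target genes. In G1, cyclin D with CDK4 or CDK6 phosphorylates the retinoblastoma protein RB, and RB then releases the activator E2Fs.

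RNA-Seq was performed on HL60 cells, an established human acute myeloid leukemia line that lacks the PML-RARA fusion and carries a mutation of p53. The 4 groups, of 3 libraries each, were non-treated cells and cells given 1 µM all-trans retinoic acid (ATRA), 1 µM palbociclib, an inhibitor of CDK4 and CDK6 (CDK4/6i), or both drugs (CDK4/6i+ATRA) over 48 h. The cells of all groups grew in RPMI1640 with serum. The labels call the libraries biological replicates, and the paper describes the gene set scores drawn from these data as coming from independent experiments. The p-values measure the spread between these libraries. All results come from this 1 cell line and from bulk RNA, in which fewer cells in a cell cycle phase and less RNA per cell cannot be told apart.

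Total counts per library ranged from 12230923 to 18679544, and those of the 3 libraries given both drugs were the smallest. Libraries of a group differed beyond counting error, since chi-square over genes, divided by its degrees of freedom, lay between 1.85 and 6.81 for pairs of them. It was 4.81 and 6.81 for the pairs with CDK4/6i+ATRA replicate 1 and 2.04 for the other pair of that group, and 4.19 and 4.72 for the pairs with non-treated replicate 3 and 1.85 for the other pair. Leaving out either library kept every call of the members that was checked, except E2F6 with ATRA, given with that gene. Comparisons of E2F7 with the CDK4/6i+ATRA group, and its interaction, were not checked in this way. Levels are given as CPM, the count divided by the library total after TMM normalization and scaled to a fixed library size, on which 3 counts correspond to 0.156 to 0.275 CPM. Since the reads carry no molecular identifiers, this floor and the counting intervals cover counting error only. CD38, a surface enzyme that retinoic acid induces, was at 399.5 CPM with ATRA and 405.4 CPM with CDK4/6i+ATRA against 0.179 CPM in non-treated cells. It belongs to a list of 5 genes for checking the ATRA treatment. Of these, 3 passed the expression filter, and all 3 were called higher with ATRA and with CDK4/6i+ATRA. The rest did not pass it, with group means of at most 0.345 CPM. Of 7 myeloid precursor markers, 4 were expressed in every group, namely MPO, CD33, SPI1 and CEBPA, and their summed level was 7103 to 7449 CPM in non-treated cells, 957.2 to 1007 CPM with ATRA, 4117 to 4247 CPM with CDK4/6i and 1033 to 1082 CPM with CDK4/6i+ATRA. The other 3, ELANE, PRTN3 and AZU1, had no count in any library. Each of these 3 is listed in the table both on a primary chromosome and on other contigs of the genome, as are 4379 genes in all. Of these, 65.9% lacked any count, against 51.01% of genes listed on a primary chromosome alone. E2F2 is the only member so listed. Erythroid markers were at or near 0, with a summed level of at most 0.117 CPM, and the summed T cell and epithelial markers reached at most 3.10 and 0.825 CPM. The summed B cell markers lay between 12.6 and 25.0 CPM and the summed endothelial or stromal markers between 14.1 and 31.3 CPM, both lowest with CDK4/6i+ATRA. Their part in the results was not tested.

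Promoter windows of 4 members held a sequence that matches the E2F consensus. E2F genes are themselves known as targets of E2F factors, and so the bases before the start sites are shown for these 4 and, for contrast, for E2F4 and E2F7. The motif was searched on both strands as TTTCCCGC, TTTCGCGC, TTTGCCGC or TTTGGCGC in RefSeq promoter windows of the GRCh38.p14 build, from 250 bases before to 50 bases after a start site. Windows were matched by symbol for 8 of the 10 members, not for E2F5 and E2F8. Each line gives the 250 bases before the start site, 5′ to 3′ on the strand of the gene, with the E2F forms in capitals.
E2F1, minus strand, chr20:33686386-33686635: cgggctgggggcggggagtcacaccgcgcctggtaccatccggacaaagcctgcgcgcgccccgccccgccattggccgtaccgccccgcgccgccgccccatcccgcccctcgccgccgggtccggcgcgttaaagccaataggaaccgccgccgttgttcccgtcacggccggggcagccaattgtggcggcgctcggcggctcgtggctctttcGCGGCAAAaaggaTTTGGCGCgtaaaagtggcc
E2F2, minus strand, chr1:23531234-23531483: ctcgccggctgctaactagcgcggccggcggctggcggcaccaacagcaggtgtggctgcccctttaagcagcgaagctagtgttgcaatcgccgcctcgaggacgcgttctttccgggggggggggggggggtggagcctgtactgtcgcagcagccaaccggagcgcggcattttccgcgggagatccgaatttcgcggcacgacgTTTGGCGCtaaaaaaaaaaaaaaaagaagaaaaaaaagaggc
E2F3, first start site, plus strand, chr6:20401629-20401878: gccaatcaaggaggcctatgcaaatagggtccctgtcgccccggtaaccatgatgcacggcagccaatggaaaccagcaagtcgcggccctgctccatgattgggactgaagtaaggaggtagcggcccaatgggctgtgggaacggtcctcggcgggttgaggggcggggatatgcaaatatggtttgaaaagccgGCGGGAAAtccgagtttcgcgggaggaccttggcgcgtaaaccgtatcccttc
TFDP1, plus strand, chr13:113584503-113584752: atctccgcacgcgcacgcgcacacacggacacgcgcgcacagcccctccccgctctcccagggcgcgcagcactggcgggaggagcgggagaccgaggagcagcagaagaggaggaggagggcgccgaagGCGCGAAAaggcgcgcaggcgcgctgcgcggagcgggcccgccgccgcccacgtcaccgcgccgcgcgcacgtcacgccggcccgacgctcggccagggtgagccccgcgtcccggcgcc
E2F4, plus strand, chr16:67191905-67192154: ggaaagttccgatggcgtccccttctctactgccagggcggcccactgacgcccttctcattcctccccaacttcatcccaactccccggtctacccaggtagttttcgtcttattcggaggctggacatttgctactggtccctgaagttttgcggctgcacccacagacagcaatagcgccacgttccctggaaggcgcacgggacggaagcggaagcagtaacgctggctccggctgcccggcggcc
E2F7, minus strand, chr12:77065570-77065819: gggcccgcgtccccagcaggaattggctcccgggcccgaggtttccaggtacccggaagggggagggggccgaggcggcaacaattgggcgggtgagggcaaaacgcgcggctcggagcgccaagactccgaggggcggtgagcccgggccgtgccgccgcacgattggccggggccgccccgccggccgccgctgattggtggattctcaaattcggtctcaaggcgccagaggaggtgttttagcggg
The E2F1 window held 2 forms, TTTGCCGC read on the opposite strand and TTTGGCGC, which begin 33 and 20 bases before the start site. E2F2 had TTTGGCGC 42 bases before its start site, E2F3 had TTTCCCGC on the opposite strand 53 bases before the first of its 2 start sites, and TFDP1 had TTTCGCGC on the opposite strand 120 bases before. The start site used for TFDP1 is chr13:113584753. Its counted exons begin earlier, at chr13:113584688, so part of the bases shown lies within their span. The second E2F3 window, the windows of E2F4, E2F6 and E2F7 and the 3 windows of TFDP2 held none. Of all 34943 promoter windows of this length, 3.30% held at least 1 such form. The CHR element TTTGAA, which is known from genes of G2 and mitosis, was found in 3 of the 11 member windows, 1 of E2F3 and 2 of TFDP2, and in 15.2% of all windows. A match describes the letters only and is not a measured binding site.

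The exon positions of the members in the table, which follow hg38, placed E2F1 at chr20:33675477-33686385, E2F2 at chr1:23505212-23531233, E2F3 at chr6:20401879-20493714 and E2F4 at chr16:67192155-67198918. E2F6 lies at chr2:11444375-11466161, E2F7 at chr12:77021251-77065569 and E2F8 at chr11:19224063-19241655. TFDP1 spans chr13:113584688-113641473 and TFDP2 spans chr3:141944428-142149544. Counts are per gene over all exons, so that E2F3a and E2F3b, the products of the 2 start sites of E2F3, were not separated. E2F2 has 7 of its exon segments, 5196 of its 6625 exon bases, listed also on an alternate contig. Whether reads that match both copies were dropped was not tested. Comparisons of E2F2 between groups use the same exons in every library, whereas its level beside other genes may be too low.

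**Figure D1:**
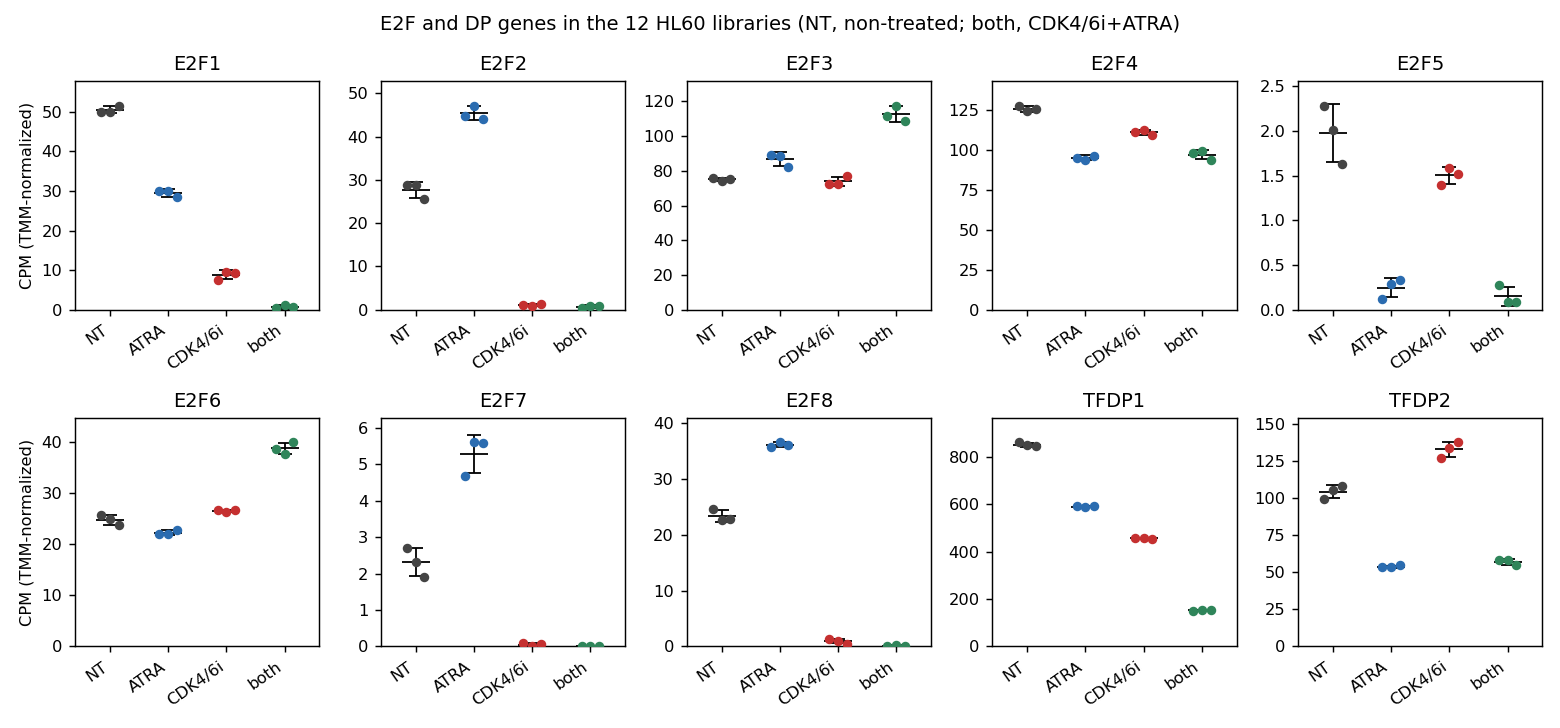
Level of each of the 10 genes in CPM (vertical axis, linear, from 0) in each of the 12 libraries (points), with the mean and SD of 3 libraries (black bars). E2F1, E2F2, E2F7 and E2F8 lie at or below 9.66 CPM in every library that received CDK4/6i, while E2F3 and E2F6 are highest with both drugs.

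In non-treated cells, TFDP1 and E2F4 were the most abundant members per kilobase of exon. TFDP1 reached 231.8 ± 2.52 CPM per kb (SD, n = 3) and E2F4 59.6 ± 0.882 CPM per kb. E2F1 followed at 18.8 ± 0.336, TFDP2 at 9.82 ± 0.408, E2F6 at 7.22 ± 0.286 and E2F8 at 5.90 ± 0.276 CPM per kb. E2F3 at 4.78 ± 0.0529 CPM per kb and E2F2 at 4.19 ± 0.278 CPM per kb came next, and E2F5 and E2F7 stayed below 1 CPM per kb. Divided by the 1429 exon bases that are listed on chromosome 1 only, E2F2 would stand at 19.4 CPM per kb, above E2F1.

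Compared with non-treated cells, ATRA raised 4 members and lowered 5 at an adjusted p-value under 0.05 (quasi-likelihood test in edgeR, Benjamini-Hochberg adjustment over all tested genes). The same test called 32.1% of all genes higher and 35.5% lower. CDK4/6i raised 1 member, TFDP2, and lowered 6, where it called 28.3% of all genes higher and 27.9% lower. CDK4/6i+ATRA changed all 10 members, with E2F3 and E2F6 higher and 8 lower, where the background was 41% higher and 40.7% lower. The counts with ATRA are not far from the background for 10 genes, whereas the 6 and 8 members lowered with CDK4/6i and CDK4/6i+ATRA lie above it. Since the members were chosen with earlier results of these data known, this difference is a description and was not tested. The median log2 fold change of the 10 members was −0.28 for ATRA, −0.65 for CDK4/6i and −3.08 for both drugs, where that of all tested genes was −0.03, 0.02 and 0.02. For the last value E2F7, which had no count with both drugs, was set to its bound.

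**Figure D2:**
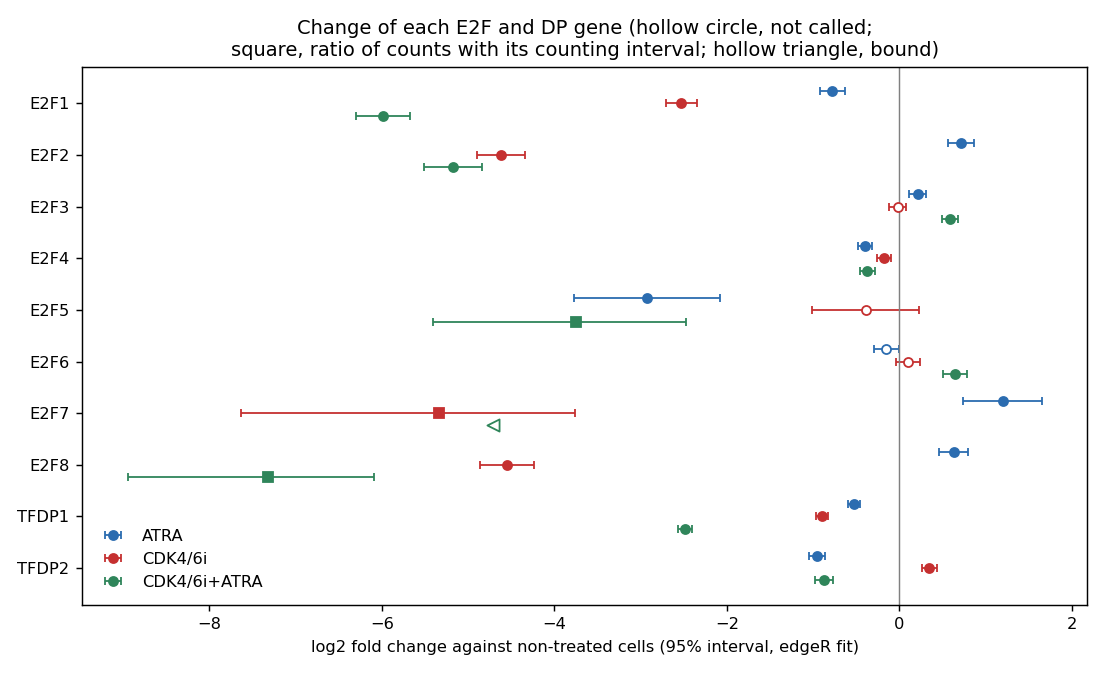
Log2 fold change of each gene against non-treated cells (horizontal axis) with ATRA, CDK4/6i and CDK4/6i+ATRA, with 95% intervals. Filled circles were called by edgeR and hollow circles were not. Squares mark groups with no library over 3 counts, drawn as the ratio of counts with its counting interval, and the hollow triangle marks the bound for E2F7 with both drugs, at least 26.3-fold lower.

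Of the activators, E2F1 fell with each drug and was almost lost with both. E2F1 is the activator best known for driving S phase entry. The non-treated libraries held 50.1, 49.98 and 51.6 CPM, the ATRA libraries 30.0, 30.1 and 28.4, the CDK4/6i libraries 7.52, 9.66 and 9.25, and the CDK4/6i+ATRA libraries 0.367, 1.34 and 0.661 CPM. The 4 groups did not overlap. E2F1 changed by −0.78 ± 0.073 on the log2 scale with ATRA (SE, adjusted p = 2.0e-13), by −2.53 ± 0.088 with CDK4/6i (adjusted p = 1.2e-29) and by −5.99 ± 0.16 with CDK4/6i+ATRA (adjusted p = 6.2e-36). The last is a 63.5-fold lower level, which rests on 27 counts over the 3 CDK4/6i+ATRA libraries against 2546 in the non-treated ones. Against CDK4/6i alone, addition of ATRA lowered E2F1 11-fold (log2 fold change −3.46 ± 0.22). Without CDK4/6i+ATRA replicate 2, which held the most E2F1 of its group, the values against non-treated cells and against CDK4/6i were −6.58 and −4.06.

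E2F2, the second activator, moved in opposite directions with the 2 drugs. It was at 28.8, 28.8 and 25.6 CPM in non-treated cells and at 44.9, 47.2 and 44.1 CPM with ATRA, but at 1.09, 0.856 and 1.40 CPM with CDK4/6i and at 0.458, 0.981 and 0.826 CPM with CDK4/6i+ATRA. The ATRA libraries were the highest, and the 2 groups with CDK4/6i overlapped. E2F2 rose 1.64-fold with ATRA (log2 fold change 0.71 ± 0.074, adjusted p = 4.7e-12), fell by 4.62 on the log2 scale with CDK4/6i (24.6-fold, adjusted p = 2.0e-32) and fell by 5.18 with CDK4/6i+ATRA (36.1-fold). The difference between CDK4/6i+ATRA and CDK4/6i, −0.55 ± 0.33, did not pass the threshold (adjusted p = 0.124, 95% interval −1.22 to 0.12). Scaled by library size alone it was −0.83 and passed.

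E2F3, the third activator, did not follow E2F1 and E2F2. Its levels were 75.9, 74.2 and 75.1 CPM in non-treated cells, 89.4, 88.7 and 82.5 CPM with ATRA, 72.6, 72.7 and 76.9 CPM with CDK4/6i and 111.8, 117.7 and 108.5 CPM with CDK4/6i+ATRA. The CDK4/6i+ATRA libraries were the highest, and those of CDK4/6i overlapped the non-treated ones. E2F3 rose with CDK4/6i+ATRA by 0.58 ± 0.047 on the log2 scale (adjusted p = 6.6e-16) and with ATRA by 0.21 ± 0.046 (adjusted p = 9.1e-05). With CDK4/6i the difference was −0.02 ± 0.047 (adjusted p = 0.737, 95% interval −0.12 to 0.07). The rise with both drugs was called under every alternative run, with a log2 fold change between 0.32 and 0.62. The gene LOC124901482, on the strand opposite to E2F3, had 138 counts in all 12 libraries and the pseudogene E2F3P1 had 142, against 3780 of E2F3 in the non-treated libraries alone.

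Of the repressors, E2F4, the main partner of p107 and p130 in resting cells, had the smallest called fall of any member in each treated group. E2F4 was at 127.8, 124.1 and 125.4 CPM in non-treated cells, 95.2, 93.5 and 96.5 CPM with ATRA, 111.5, 112.5 and 109.3 CPM with CDK4/6i and 98.0, 99.5 and 94.0 CPM with CDK4/6i+ATRA. The non-treated libraries were the highest, and the ATRA and CDK4/6i+ATRA libraries overlapped. The falls were 0.40 ± 0.041 on the log2 scale for ATRA, 0.18 ± 0.040 for CDK4/6i and 0.37 ± 0.043 for both drugs, with adjusted p-values of 2.0e-12, 0.000147 and 4.6e-11. CDK4/6i+ATRA differed from ATRA by 0.03 ± 0.044, which did not pass (adjusted p = 0.547). The sign of this last difference depended on the processing. Library size alone gave −0.28 (adjusted p = 1.0e-06), no filter on low counts gave −0.064 and a fit of only the groups compared gave −0.038, of which the last 2 did not pass.

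E2F5, a repressor that binds p130, was rare and fell with ATRA. The counts were 38, 32 and 29 in the non-treated libraries, 2, 5 and 6 with ATRA, 27, 26 and 26 with CDK4/6i and 3, 1 and 1 with CDK4/6i+ATRA. The libraries with ATRA were lower than those without it, whether or not CDK4/6i was present. E2F5 fell 7.61-fold with ATRA (log2 fold change −2.93 ± 0.42, adjusted p = 2.8e-08). By counts it was 13.5-fold lower with CDK4/6i+ATRA (95% counting interval 5.58 to 42.4) and 10.3-fold lower than with CDK4/6i alone (4.21 to 32.5). Without CDK4/6i+ATRA replicate 1, which held 3 of the 5 counts, the fitted log2 fold change went from −3.68 to −4.40 against non-treated cells and from −3.29 to −4.01 against CDK4/6i. With CDK4/6i alone the difference was −0.39 ± 0.31 (adjusted p = 0.287). The last exon of E2F5 overlaps the gene RBIS on the opposite strand. RBIS had 4082 counts over the 12 libraries, and was at 24.3 ± 0.304 CPM in non-treated cells, 17.2 ± 0.722 CPM with ATRA, 27.4 ± 0.848 CPM with CDK4/6i and 15.4 ± 1.13 CPM with both drugs. The library kit was directional, but whether reads were counted by strand is not given in the sources used here.

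E2F6, which lacks the domain for activation and works with the Polycomb complex PRC1.6, rose with CDK4/6i+ATRA and was not called with either drug alone. It was at 25.8, 24.9 and 23.8 CPM in non-treated cells, 21.9, 22.1 and 22.9 CPM with ATRA, 26.8, 26.3 and 26.7 CPM with CDK4/6i and 38.7, 37.7 and 40.0 CPM with CDK4/6i+ATRA. The CDK4/6i+ATRA libraries were the highest. The log2 fold change was 0.64 ± 0.070 with CDK4/6i+ATRA (1.56-fold, adjusted p = 1.0e-11), −0.15 ± 0.072 with ATRA (adjusted p = 0.0542) and 0.10 ± 0.070 with CDK4/6i (adjusted p = 0.226). The rise was called under every alternative run, between 0.38 and 0.68. Without non-treated replicate 3 the difference with ATRA was −0.19 and passed the threshold (adjusted p = 0.0392). CDK4/6i exceeded ATRA by 0.25 ± 0.070 (adjusted p = 0.00135).

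Both atypical E2Fs rose with ATRA and fell with CDK4/6i. E2F7 and E2F8 repress E2F1 and other targets late in S phase. E2F8 was at 24.6, 22.6 and 22.8 CPM in non-treated cells and 35.7, 36.5 and 36.0 CPM with ATRA, where it rose 1.55-fold (log2 fold change 0.63 ± 0.084, adjusted p = 5.2e-09). The CDK4/6i libraries held 1.35, 1.04 and 0.527 CPM, a 23.5-fold fall (log2 fold change −4.55 ± 0.16, adjusted p = 6.5e-30), and the CDK4/6i+ATRA libraries 0, 3 and 2 counts. By counts, E2F8 was thus 159.6-fold lower than in non-treated cells (95% counting interval 68.2 to 492.6) and 6.75-fold lower than with CDK4/6i alone (2.71 to 21.7). Without CDK4/6i+ATRA replicate 2, which held 3 of the 5 counts, the fitted log2 fold change went from −7.24 to −7.95 against non-treated cells and from −2.69 to −3.40 against CDK4/6i. The 4 groups did not overlap.

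E2F7 showed 45, 37 and 34 counts in non-treated cells and 76, 96 and 101 counts with ATRA, 2.31 ± 0.395 and 5.29 ± 0.522 CPM. The rise was 2.29-fold (log2 fold change 1.20 ± 0.23, adjusted p = 8.4e-06). With CDK4/6i there were 2, 0 and 1 counts, 40.5-fold lower than in non-treated cells by counts (95% counting interval 13.5 to 199.3). Without CDK4/6i replicate 1, which held 2 of these counts, the fitted log2 fold change went from −5.16 to −5.93. With CDK4/6i+ATRA no library had a count, at least 26.3-fold lower than in non-treated cells and at least 60.5-fold lower than with ATRA, with 3 counts over the group as the floor. E2F7 was therefore not detectable at this depth with both drugs, and the 2 groups with CDK4/6i cannot be compared.

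The DP partners also diverged. TFDP1, which encodes DP1 and was the most abundant member, was at 860.9, 847.7 and 843.1 CPM in non-treated cells, 590.6, 586.4 and 592.4 CPM with ATRA, 456.3, 458.4 and 453.3 CPM with CDK4/6i and 148.3, 155.8 and 152.3 CPM with CDK4/6i+ATRA. The groups did not overlap, in the order non-treated, ATRA, CDK4/6i and CDK4/6i+ATRA. The log2 fold change of TFDP1 was −0.53 ± 0.036 with ATRA (adjusted p = 2.6e-18), −0.90 ± 0.036 under CDK4/6i (adjusted p = 6.6e-27) and −2.48 ± 0.040 for the pair of drugs (adjusted p = 7.9e-45), the last a 5.59-fold fall. The pseudogenes TFDP1P2 and TFDP1P3 had 362 and 116 counts in all, against 42815 of TFDP1 in the non-treated libraries alone.

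TFDP2, which encodes DP2, was lower in both groups with ATRA and rose with CDK4/6i alone. It was at 99.7, 105.7 and 108.1 CPM in non-treated cells, 53.8, 53.3 and 54.7 CPM with ATRA, 127.2, 133.8 and 137.8 CPM with CDK4/6i and 58.3, 58.1 and 55.0 CPM with CDK4/6i+ATRA. The CDK4/6i libraries were the highest, and both groups with ATRA were lower than both groups without. TFDP2 fell by 0.95 ± 0.047 on the log2 scale with ATRA (adjusted p = 1.4e-23) and by 0.87 ± 0.050 with CDK4/6i+ATRA (adjusted p = 1.6e-21), and rose by 0.35 ± 0.043 with CDK4/6i (adjusted p = 1.5e-09). CDK4/6i+ATRA exceeded ATRA by 0.08 ± 0.054, which did not pass (adjusted p = 0.174), and library size alone turned this difference to −0.23 (adjusted p = 0.000721) and no filter on low counts to −0.013 (adjusted p = 0.979).

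Addition of ATRA to CDK4/6i raised 2 members, E2F3 and E2F6, and lowered 6, where 39.1% of all genes were called higher and 39.5% lower. Addition of CDK4/6i to ATRA raised E2F3 and E2F6 and lowered 5, where the background was 36.9% higher and 32.8% lower. CDK4/6i against ATRA called 4 members higher, E2F4, E2F5, E2F6 and TFDP2, and 6 lower, where 35.6% and 35.2% of all genes were called. These comparisons share their libraries with those above and are not independent of them. Scaling by library size alone moved the median of all genes by −0.27 in CDK4/6i+ATRA against non-treated cells, −0.28 against CDK4/6i and −0.31 against ATRA. Of the genes called, the share that was higher then changed from 49.8% to 36.7% against CDK4/6i and from 53.0% to 31.6% against ATRA. The members called were then 2 higher and 7 lower against CDK4/6i, and 1 higher and 7 lower against ATRA.

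The interaction of the drugs asked whether the ATRA effect on a member differed with and without CDK4/6i. It subtracts the log2 fold changes of ATRA alone and CDK4/6i alone from that of the drug pair. It was called for 8 members, 3 higher and 5 lower, where 24.5% of all genes were called higher and 27% lower. The lowest values were those of E2F8, −3.32 ± 0.53 (adjusted p = 6.0e-07), and E2F1, −2.68 ± 0.25 (adjusted p = 3.8e-13). The E2F8 value rests on 5 counts in the CDK4/6i+ATRA group. Without CDK4/6i+ATRA replicate 2 the interaction was −4.03 for E2F8 and −3.28 for E2F1, both called. E2F2 had an interaction of −1.26 ± 0.34 (adjusted p = 0.00135) and TFDP1 of −1.06 ± 0.053 (adjusted p = 1.5e-22), and that of TFDP2 was smaller, −0.26 ± 0.069.

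For E2F2 and E2F8 the estimated ATRA effect was positive without CDK4/6i and negative with it, although the latter did not pass for E2F2. E2F6 had the highest interaction, 0.70 ± 0.099 (adjusted p = 4.6e-08), followed by E2F3 at 0.40 ± 0.066 and E2F4 at 0.21 ± 0.059. The last 2 depended on the processing. With library size alone, where the median of all genes moved by −0.32, the interaction of E2F3 was 0.08 and that of E2F4 −0.11, and neither passed. With no filter on low counts, that of E2F4 was 0.12 and did not pass (adjusted p = 0.273). With library size alone, the share of higher calls among all genes changed from 47.5% to 18.5%. The members called then became 1 higher and 6 lower, the latter including E2F7. E2F5 had an interaction of −0.36 ± 0.80 (adjusted p = 0.738), or −1.08 without CDK4/6i+ATRA replicate 1 (adjusted p = 0.417), and that of E2F7 is not given because its CDK4/6i groups were at the floor.

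**Figure D3:**
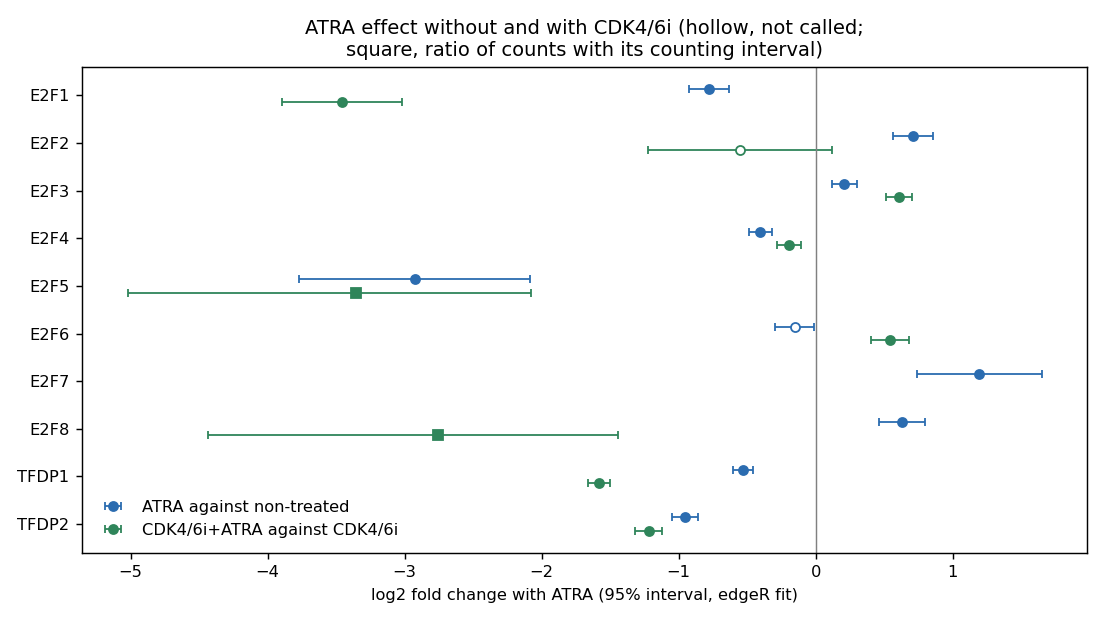
Log2 fold change with ATRA (horizontal axis, 95% interval) for each gene without CDK4/6i (ATRA against non-treated) and with it (CDK4/6i+ATRA against CDK4/6i). Squares are ratios of counts with a counting interval, hollow circles were not called, and E2F7 is drawn without CDK4/6i only. E2F8 moves from 0.63 without CDK4/6i to the left of 0 with it, whereas E2F3 and E2F6 lie further right with CDK4/6i.

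Per kilobase of exon, E2F3, E2F4 and E2F6 took larger shares of E2F transcripts in both groups with CDK4/6i than in non-treated cells. E2F1, E2F2, E2F7 and E2F8 took smaller ones. As shares of the summed CPM per kb of the 8 E2F genes, E2F1 to E2F3 took 27.3% ± 0.389 (SD, n = 3) without drugs, 27.5% ± 0.924 under ATRA, 11.7% ± 0.728 under CDK4/6i and 11.7% ± 0.536 under the drug pair. Within this class E2F3 took 4.70% of all E2F transcripts in non-treated cells and 11.03% with CDK4/6i+ATRA, while E2F1 went from 18.5% to 0.448%, or 0.298% without CDK4/6i+ATRA replicate 2. E2F4 and E2F5 together took 59.5% ± 0.148, 53.1% ± 0.822, 76.8% ± 0.576 and 70.9% ± 0.682 in the same order of groups. E2F6 took 7.09% ± 0.206 in non-treated cells and 17.4% ± 0.897 with CDK4/6i+ATRA. E2F7 and E2F8 together took 6.18% ± 0.233, were at 11.8% ± 0.216 with ATRA and at 0.367% ± 0.155 with CDK4/6i.

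The summed level of the 8 genes was 101.8 ± 1.56 CPM per kb in non-treated cells and 65.01 ± 1.42 with CDK4/6i+ATRA. With E2F2 taken over its bases on chromosome 1 only, E2F1 to E2F3 took 36.7%, 43.9%, 12.5% and 12.2%. Without division by length the shares of E2F1 to E2F3 were 46.3%, 50.4%, 37.4% and 45.6%, and those of E2F4 and E2F5 were 38.5%, 29.7%, 50.2% and 38.8%. The gap of both classes between non-treated cells and CDK4/6i+ATRA is thus seen per kilobase, and in CPM it was within 1 SD of the CDK4/6i+ATRA libraries. In CPM, E2F3 by itself took 22.64% of E2F transcripts in non-treated cells and 44.98% with CDK4/6i+ATRA. E2F4 was above it in non-treated cells, at 37.93%, and below it with both drugs, at 38.79%. The low share of E2F3 per kilobase thus depends on division by its 15705 exon bases, the most of any member. TFDP1 took 95.9% ± 0.204 of the CPM per kb of both DP genes in non-treated cells and 88.5% ± 0.440 with CDK4/6i+ATRA. Without division by length it took 89.1% and 72.7%.

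**Figure D4:**
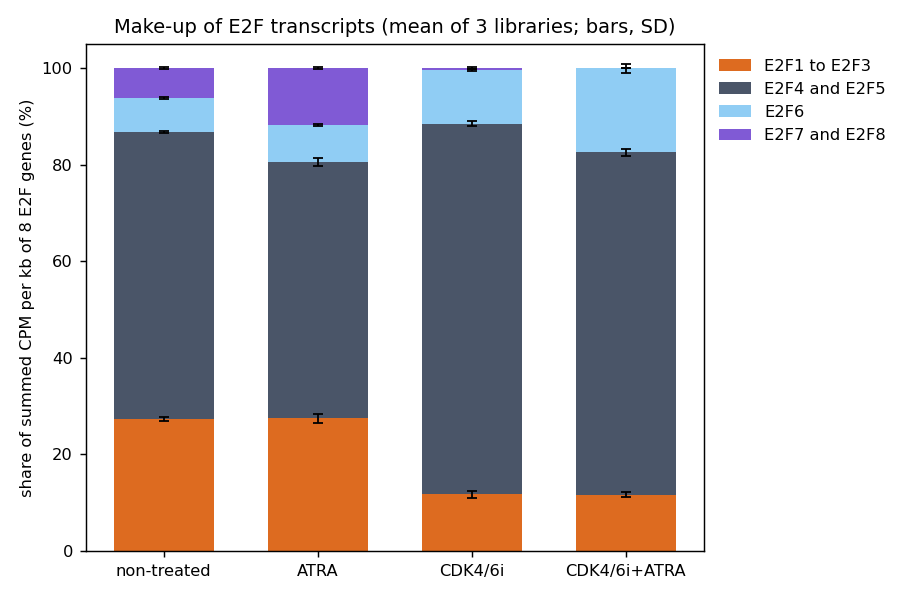
Share of each E2F class in the summed CPM per kb of the 8 E2F genes (vertical axis, percent, stacked from 0), as the mean of 3 libraries per group, with the SD of each class at its upper edge. E2F1 to E2F3 shrink from 27.3% to 11.7% with CDK4/6i, and E2F7 and E2F8 nearly vanish in both groups with CDK4/6i.

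Target genes of the E2F factors in G1 and S phase fell in both groups with CDK4/6i. Of 39 such genes, all tested, 39 were lower with CDK4/6i (median log2 fold change −2.49) and 39 with CDK4/6i+ATRA (median −4.63), while with ATRA 28 were lower and 4 higher (median −0.32). Among all tested genes, 27.9%, 40.7% and 35.5% were called lower in the same order, and 32.1% higher with ATRA. Examples with CDK4/6i and CDK4/6i+ATRA were CCNE1, cyclin E1, at −0.99 and −4.64, CDC6, which loads the MCM helicase, at −2.69 and −5.97, MCM2, a subunit of that helicase, at −1.56 and −4.78, and PCNA, the sliding clamp, at −2.99 and −4.46. TYMS, thymidylate synthase, changed by −4.36 and −5.69, and CDK1 by −4.67 and −6.04. The largest fall was that of RRM2, a subunit of ribonucleotide reductase, with CDK4/6i (−4.70) and of GINS2 with CDK4/6i+ATRA (−6.68).

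The 4 targets that rose with ATRA were CCNE2 (0.70), RRM2 (0.49), TK1 (0.33) and CDK1 (0.31), of which TK1 was named after its value was seen. Cyclin A2, CCNA2, had a difference of −0.01 with ATRA (adjusted p = 0.779). The interaction was called lower for 38 of the 39 (median −1.68), where 27% of all genes were called lower. E2F forms were found in promoter windows of 19 of the 33 targets with a window, 57.6%, against 3.97% of all genes.

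**Figure D5:**
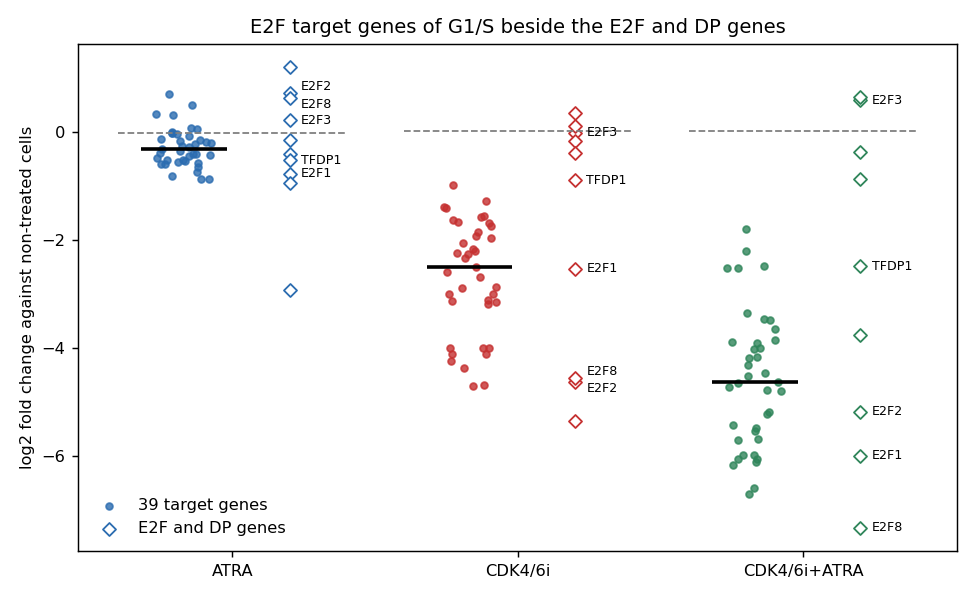
Log2 fold change against non-treated cells (vertical axis) of the 39 E2F target genes of G1 and S phase (filled points, black line at their median) and of the E2F and DP genes (hollow diamonds) in the 3 treated groups, with the median of all tested genes as a dashed line. The E2F7 value with both drugs, a bound, is left out. With CDK4/6i+ATRA the targets have their median at −4.63, and E2F1, E2F2 and E2F8 lie below it while E2F3 lies above 0.

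The partners that hold E2Fs in check moved unequally. Of 8 pocket and MuvB proteins, CDK4/6i raised 1 and lowered 6 and CDK4/6i+ATRA raised 2 and lowered 6 (median log2 fold changes −0.50 and −0.81), while ATRA raised 3 and lowered 1 (median 0.03). Among all tested genes, CDK4/6i raised 28.3% and lowered 27.9%, CDK4/6i+ATRA 41% and 40.7%, and ATRA 32.1% and 35.5%. RB1, which encodes RB, was at 183.6 ± 5.08 CPM in non-treated cells, 264.9 ± 3.31 CPM with ATRA, 141.5 ± 7.33 CPM with CDK4/6i and 252.8 ± 0.233 CPM with both drugs, and it was higher with both drugs by 0.46 on the log2 scale. RBL1, which encodes p107, went the other way, with 93.6, 89.8, 17.5 and 6.28 CPM in the same order (−3.89 with both drugs). RBL2, which encodes p130, changed by 0.20 with CDK4/6i and −0.36 with both drugs. LIN9, a MuvB subunit, had the largest fall with both drugs against CDK4/6i alone, −2.90, and RBBP4 had the only called fall with ATRA, −0.29.

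Of 12 tested G1 regulators upstream of RB, ATRA raised 6 and lowered 5, CDK4/6i raised 5 and lowered 7 and CDK4/6i+ATRA raised 5 and lowered 7 (median log2 fold changes 0.11, −0.21 and −0.48). In the same order, 32.1% and 35.5%, 28.3% and 27.9%, and 41% and 40.7% of all tested genes were called higher and lower. CDK4 fell from 105.2 to 10.9 CPM with both drugs (−3.27) and CDK6 from 77.4 to 30.2 CPM (−1.36). Among the D-type cyclins, CCND1 rose by 1.33 and CCND3 by 1.00 with both drugs, whereas CCND2 fell by 1.96. CDKN2B, the CDK4/6 inhibitor protein p15, had the largest rise with both drugs, from 0.453 to 53.3 CPM (6.84), and CDKN1A, which encodes p21, had the largest with ATRA (4.92). CDKN2C fell by 3.32 with CDK4/6i, and CDK2 fell by 3.52 with both drugs.

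Apoptosis genes that E2F1 is known to activate were mostly higher in both groups with ATRA. Of 8 tested, ATRA raised 7, and CDK4/6i+ATRA raised 7 and lowered 1 (median log2 fold changes 1.19 and 1.27). Among all tested genes, 32.1% were called higher with ATRA, and 41% higher and 40.7% lower with both drugs. PMAIP1, the BH3-only protein NOXA, rose by 2.15 with ATRA and by 3.66 with both drugs and fell by 0.76 with CDK4/6i. CDK4/6i raised 2 and lowered 2 (median −0.03), where 28.3% and 27.9% of all genes were called, and BCL2L11 had the largest rise (0.52). APAF1 rose by 1.13 with ATRA and by 0.86 with both drugs. The gene lowered with both drugs was TP73, below 5 CPM and named after its value was seen. It was at 0.378 ± 0.0707 CPM in non-treated cells and, below the floor of 3 counts, at 0.0603 ± 0.0522 CPM with both drugs.

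Of 11 tested partners of E2F6 in PRC1.6, CDK4/6i+ATRA raised 3 and lowered 8 (median −0.74), ATRA raised 2 and lowered 7 (median −0.31) and CDK4/6i raised 1 and lowered 8 (median −0.20). For all tested genes the shares were 41% and 40.7%, 32.1% and 35.5%, and 28.3% and 27.9% in this order. RYBP had the largest rise with both drugs, 1.84, and WDR5 the largest fall, −2.51. RING1, another partner, had no count in any library and is also listed on other contigs. MAX, which pairs with MGA in this complex, changed by −0.77 with ATRA and 0.12 with CDK4/6i, and PCGF6 by −1.08 with CDK4/6i. Of 8 germ-line genes known as E2F6 targets, 2 passed the filter. TDRKH was higher with ATRA by 0.59, and its difference with both drugs was −0.09 (adjusted p = 0.517). STAG3, below 5 CPM like TP73 and named after its value was seen, was at 0.261 ± 0.194 CPM in non-treated cells and 1.13 ± 0.272 CPM with both drugs (2.10, adjusted p = 0.000453).

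Of 7 ubiquitin ligase subunits that act on E2Fs, ATRA raised 2 and lowered 4, CDK4/6i raised 1 and lowered 6 and CDK4/6i+ATRA raised 1 and lowered 5 (medians −0.21, −0.68 and −0.79). The shares of all tested genes were 32.1% and 35.5%, 28.3% and 27.9%, and 41% and 40.7% in the same order. CCNF, cyclin F, which marks activator and atypical E2Fs for degradation, fell from 60.3 to 1.35 CPM with both drugs (−5.48). SKP2 had the largest fall with ATRA (−0.62), and CDC20 the largest with both drugs (−5.99). FZR1, an activator of the anaphase-promoting complex, rose by 0.56 with ATRA.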

How the data were processed

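RNA-Seq libraries were prepared from HL60 cells with a directional kit. Per the labels, the submitters' processing notes name Trimmomatic 0.33, STAR 2.7.11a and hg38, and the paper names the NCBI RefSeq annotation and RSEM. The deposited table holds raw counts per gene, which are whole numbers without normalization, in the layout that featureCounts writes. Groups were taken from the sample labels, 3 libraries each, with 12230923 to 18679544 counts per library.

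The members and gene lists were chosen with earlier results of these data known, and general knowledge was the source of the lists. Genes were filtered with filterByExpr, which kept 13318, normalized with TMM and tested with edgeR 4.0.16 (R 4.3.3) by a quasi-likelihood test on a model of the 4 groups. The model had 8 residual degrees of freedom, and p-values were adjusted by Benjamini-Hochberg over all tested genes, with calls at adjusted p-values under 0.05. Biological variation between libraries had a common coefficient of 3.70%. Levels per kb divide CPM by the exon bases on the primary chromosome. Counting intervals are 95% exact intervals for a ratio of counts. The named genes are the 10 members, the genes of the RB pathway and the targets given in the text, and in each list the largest rise and the largest fall among called genes with a mean of at least 5 CPM. Alternatives changed the scaling (library size alone, or size factors from DESeq2), the filter (none, or a minimum of 10 counts per library), the model (a block for the replicate number, or a fit of the compared groups by themselves) and the tool (DESeq2 1.42.0). Each library was also left out in turn. For the make-up of E2F transcripts, CPM without division by length was an alternative, and the deposited lengths and E2F2 by its bases on chromosome 1 only were added after seeing the data. Promoter windows came from RefSeq (GRCh38.p14). Figures were drawn with matplotlib 3.10.9. Protein sequences were not used here. Some items are not reported here.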

Additional observations from a re-analysis of the deposited data

Results flagged for a closer look

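The ATRA effect differed between cells without and with CDK4/6i for 8 of the 10 genes, by the test of the difference itself (the interaction term in edgeR, adjusted over all tested genes), which called 24.5% of all genes higher and 27% lower. The interaction was −3.32 for E2F8, −2.68 for E2F1, −1.26 for E2F2, −1.06 for TFDP1 and −0.26 for TFDP2, the effect of the drug pair lying below the sum of the effects of either drug alone. It was 0.70 for E2F6, 0.40 for E2F3 and 0.21 for E2F4, the effect of the pair lying above that sum, of which the values of E2F3 and E2F4 did not pass with library size alone and that of E2F4 did not pass with no filter on low counts (0.12).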

How the results depend on the processing

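Of 1212 refits of the members' log2 fold changes, 1201 kept their direction and their side of the threshold, and so did 125 of the 132 counts of members and the 132 counts of all genes within 1.5 times. The 7 counts that fell came from requiring at least 10 counts in every library, which left 5 members to test and called 4 members for ATRA, 3 for CDK4/6i and 5 for the drug pair relative to non-treated cells, 5 for CDK4/6i+ATRA against CDK4/6i, 3 for CDK4/6i+ATRA against ATRA, 5 for CDK4/6i against ATRA and 5 for the interaction, where this filter called 73.7%, 65.5%, 86.5%, 83.7%, 77%, 77.7% and 60.8% of 10296 genes in the same order. E2F4 in CDK4/6i+ATRA against ATRA reversed to −0.28 with library size alone, −0.064 with no filter and −0.038 with only the groups compared, and TFDP2 to −0.23 with library size alone and −0.013 with no filter. The interaction of E2F4 reversed to −0.11 with library size alone and was 0.12, not called, with no filter. The cause was not tested. E2F3 with library size alone was not called in CDK4/6i+ATRA against ATRA (0.07) or the interaction (0.08). Leaving out each library in turn kept every call of the members that was checked, except E2F6 with ATRA, called without non-treated replicate 3. Comparisons of E2F7 with the CDK4/6i+ATRA group, and its interaction, were not checked in this way. Leaving out a library moved a fitted fold change by over 1.5 times for E2F1 and E2F8 without CDK4/6i+ATRA replicate 2, E2F5 without CDK4/6i+ATRA replicate 1 and E2F7 without CDK4/6i replicate 1, with the calls kept.

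The share of E2F1 to E2F3 in non-treated cells was 46.3% without division by length, 25.9% with the deposited length and 36.7% with E2F2 by its bases on chromosome 1 only. With ATRA it was 50.4%, 24.8% and 43.9%, with CDK4/6i 37.4% without division by length and 12.5% by the latter, and with CDK4/6i+ATRA 45.6% and 12.2%. With the replicate block, 9, 7 and 10 members were called for ATRA, CDK4/6i and the drug pair, as without it, where this model called 66.9%, 55.5% and 81.3% of all genes. The 18 pairs of libraries with the same number correlated between −0.152 and 0.0912, so the numbers were not taken to pair the samples. Depth limits E2F5, E2F7 and E2F8, which had 5, 0 and 5 counts in the CDK4/6i+ATRA group. The design gives 1 time point, 1 dose per drug and 1 line, and transcript levels do not measure E2F protein or its release from RB.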

Other observations

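Over the 12 libraries, the genes with a mean of at least 5 CPM whose log2 CPM was most like that of E2F1 were RAD51C (Pearson's r 0.996) and PRPF3 (0.995), and for E2F2 they were GTSE1 (0.998) and CNP (0.996). E2F8 was most like C1orf112 (0.997) and HMGN2 (0.997), and E2F7 most like PBRM1 (0.998) and RAD21 (0.996). E2F3 was most like FKBP15 and RYBP (both 0.990). E2F4 was most like ATF5 (0.987) and ATP13A3 (0.985), E2F5 most like LPIN1 (0.994) and POFUT1 (0.993), TFDP1 most like ANP32B and RANBP1 (both 0.999) and TFDP2 most like DGKD and DPH5 (both 0.996). Among the members, the closest pair was E2F2 with E2F8 (0.988). The 12 points fall into 4 groups of 3 and share their libraries, so that between 343 and 1418 genes had an r over 0.9 with each member, and these values describe the pattern only.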
